A study of Mus musculus with 8 samples.

Results

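Type I interferon-stimulated genes were followed in macrophages from the peritoneum of Card9-/- and wild-type (wt) mice with zymosan peritonitis. The module held 34 named genes, taken as every non-control probe whose gene name was on the list, out of 37008 names on the array. All 34 had at least 1 probe (59 in all), and 33 were bright enough to be tested among 18605 genes. Card9-/- mice, with 4 arrays, had been injected intraperitoneally with 500 mg/kg zymosan, made from yeast cell walls, 4 h earlier. They were set against wt mice given the same injection, also with 4 arrays. Before harvest both genotypes had received 1 ml of 3% thioglycolate, which draws cells into the peritoneum, and fluid was collected 4 days later. Cells that adhered within 3 h were kept as peritoneal macrophages, so the cells of both genotypes had also been plated. Cell pellets came from 4 or 5 mice a group, and since it is not stated if the RNA on an array came from 1 mouse or a pool, p-values measure the spread between these arrays, which may be partly technical. The labels give neither the strain, the age nor the deleted part of Card9, and samples without zymosan were not analysed here.

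Interferon alpha and beta bind a receptor made of Ifnar1 and Ifnar2, whose kinases phosphorylate Stat2. Stat2 and Irf9 are part of the complex ISGF3, which binds the interferon-stimulated response element (ISRE) in the promoters of its targets. The targets include sensors of viral RNA and DNA, proteins that block translation or degrade viral RNA, the ubiquitin-like Isg15, and Usp18, which removes Isg15 from proteins and dampens signalling at the receptor. In macrophages these genes are induced together and serve as a readout of interferon exposure. Card9 is an adaptor between C-type lectin receptors for fungal walls and NF-kB.

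Several features of the arrays touch every value below. Levels are log2 processed signals minus the array's 75th percentile, so 0 is that percentile and 1 unit is a doubling. Card9 exceeded background clearly on 0 Card9-/- arrays and 3 wt arrays, with levels of -5.93, -5.48, -4.77 and -5.43 in Card9-/- replicates 1 to 4, against -6.21, -3.66, 1.48 and -0.67 in wt replicates 1 to 4, so wt replicate 1 was as low as the Card9-/- arrays. The Y-linked genes Ddx3y, Eif2s3y and Uty were well above background on all Card9-/- arrays and on no wt array, and sex and genotype cannot be told apart. Slide 1, read in 1 scan, carried Card9-/- replicate 4 with the 4 wt arrays, and Card9-/- replicates 1 to 3 lay on slides 2 and 3. The macrophage markers Adgre1 and Csf1r were well above background on all 8 arrays. Over 13 measured macrophage markers, the median deviation from each gene's median over 8 arrays was -0.37 to 0.21 log2 units on the Card9-/- arrays, against -1.32, -1.37, 3.81 and 2.63 on wt replicates 1 to 4, so that wt replicates 3 and 4 stood apart. The macrophage receptor kinase Mertk was above background on 0 Card9-/- arrays and 2 wt arrays, replicates 3 and 4. All 18 T cell markers and all 13 measured natural killer cell markers had higher means in Card9-/-, by a median of 1.35 and 2.40 log2 units. In bulk RNA, fewer cells of a type and less RNA per cell cannot be told apart.

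The promoters of the module were read first, since ISGF3 acts there. RefSeq promoter sequences on GRCm38.p6, from 250 bases before to 50 bases after the start, were matched to 26 of the 34 genes. The ISRE core was searched as GAAANNGAAA or its reverse complement TTTCNNTTTC, overlapping matches allowed. It was present in 13 of the 26 promoters (50%), against 3.99% of the promoters of 27025 gene symbols. The gamma-activated site TTCNNNGAA was present in 4 of the 26 (15.4%), against 9.55% of all symbols. Windows of 60 bases upstream of the start are shown, 5′ to 3′ on the gene's strand, for 9 genes described below, with the matched ISRE cores in capitals. In Isg15 (GRCm38.p6 chr4:156200856-156200915, minus strand) 3 overlapping matches formed a single run.
Isg15: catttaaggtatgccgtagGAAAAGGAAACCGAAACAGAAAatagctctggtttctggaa
Ifit1 (chr19:34640769-34640828, plus strand) and Ifit3 (chr19:34583365-34583424, plus strand), both on chromosome 19, each held 2 separate matches, read on the opposite strand.
Ifit1: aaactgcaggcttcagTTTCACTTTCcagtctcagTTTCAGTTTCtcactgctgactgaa
Ifit3: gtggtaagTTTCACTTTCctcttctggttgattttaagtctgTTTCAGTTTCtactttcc
Among the oligoadenylate synthetase genes of chromosome 5, Oas1a (chr5:120907526-120907585, minus strand) and Oas1g (chr5:120887614-120887673, minus strand) shared an identical run of 56 bases, starting 58 bases before the start of Oas1a and 56 before that of Oas1g, that holds both overlapping matches. Oas3 (chr5:120777700-120777759, minus strand) held 1 match.
Oas1a: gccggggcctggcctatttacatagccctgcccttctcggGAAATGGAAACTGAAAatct
Oas1g: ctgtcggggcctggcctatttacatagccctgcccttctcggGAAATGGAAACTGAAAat
Oas3: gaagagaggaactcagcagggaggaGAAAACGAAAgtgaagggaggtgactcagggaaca
Rsad2 (chr12:26456538-26456597, minus strand), Bst2 (chr8:71537565-71537624, minus strand) and Stat2 (chr10:128270251-128270310, plus strand) are shown for comparison with the levels given below.
Rsad2: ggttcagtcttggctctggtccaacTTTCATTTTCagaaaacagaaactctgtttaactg
Bst2: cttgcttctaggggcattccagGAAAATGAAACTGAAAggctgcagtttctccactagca
Stat2: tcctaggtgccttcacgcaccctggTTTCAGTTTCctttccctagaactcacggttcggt
A match describes letters and not a binding site.

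The genotypes did not differ detectably over the module, and 1 wt array carried its main feature. None of the 33 tested genes passed limma's test at an adjusted p of 0.05 (adjusted p 0.786 to 0.999), where 0.0269% of all genes did, and 0 had an unadjusted p under 0.05, against 7.23% of all genes. The module's median difference, Card9-/- minus wt, was -0.25 log2 units (all genes -0.09), with 13 genes higher and 20 lower in Card9-/-, where 43.7% of all genes were higher. In wt replicate 4, however, 32 of the 33 genes had their highest level of the 8 arrays (7 for Ifit2), as did 11.1% of all genes. Its level exceeded that of every other array at least 4-fold in 11 genes of the module, against 0.527% of all genes. The median gap to the next highest array was 1.82 log2 units for the module and -0.95 for all genes. By the gap within wt divided by the range of the 4 wt arrays (Dixon's ratio at its 95% limit), wt replicate 4 stood apart from the other wt arrays in 12 genes of the module, against 0.709% of all genes. The exception to its lead was Isg20, which was highest on Card9-/- replicate 4.

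**Figure D1:**
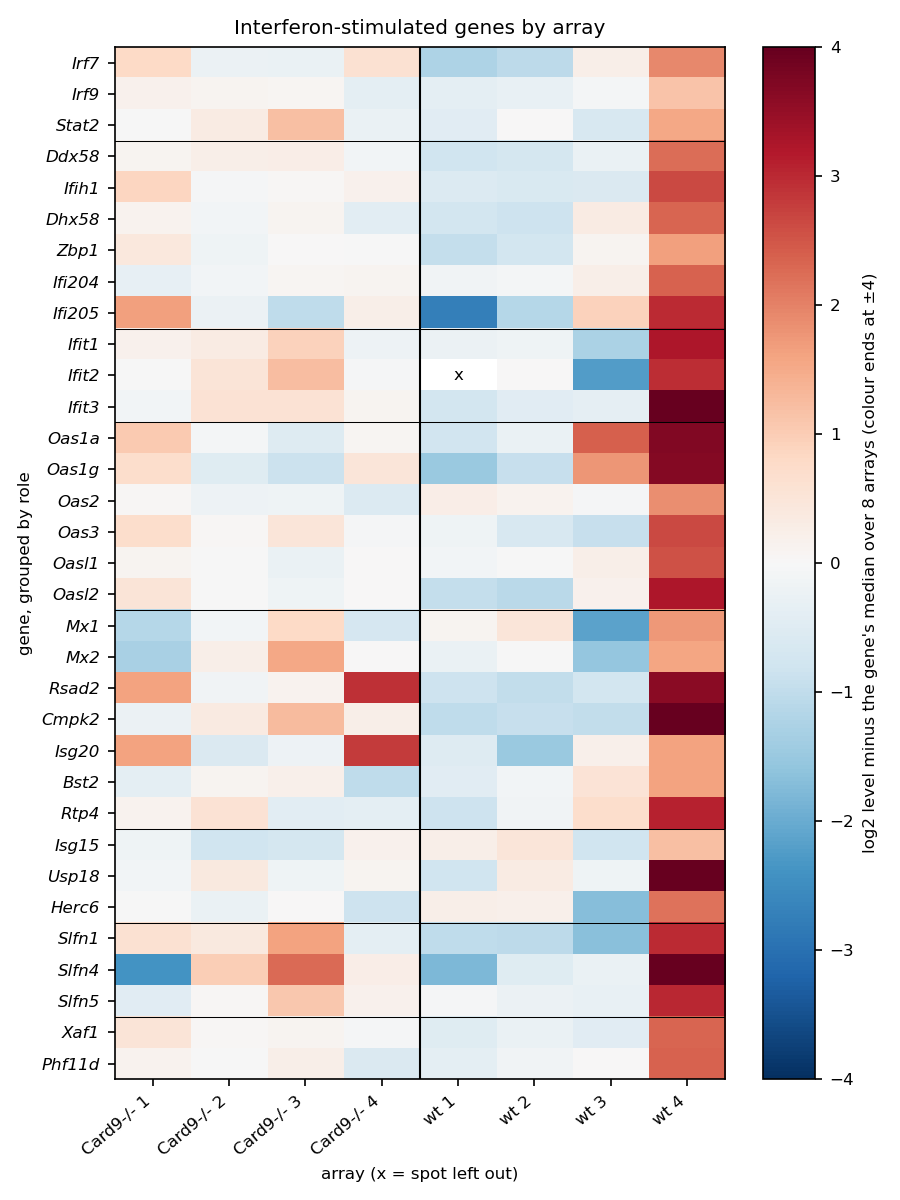
Heat map of 33 interferon-stimulated genes (rows, grouped by role) on 8 arrays (columns, Card9-/- left of wt), coloured by log2 level minus the gene's median over 8 arrays, with colour ending at ±4 and x marking the spot of Ifit2 left out on wt 1. The wt 4 column is red throughout, with 32 genes at their highest level there.

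Set against each gene's median over 8 arrays, the module's median deviation was 0.14, -0.01, 0.10 and 0.01 log2 units in Card9-/- replicates 1 to 4, against -0.53, -0.28, -0.25 and 2.53 in wt replicates 1 to 4. The Card9-/- arrays therefore lay close together and between wt replicate 4 and the other wt arrays. The SD over arrays of a genotype had a median of 0.47 log2 units in Card9-/- and 1.60 in wt over the module, against 0.59 in Card9-/- and 0.68 in wt over all genes. Without wt replicate 4 the median SD of wt over the module was 0.57, and that of Card9-/- was exceeded in 18 of 33 genes. Wt replicate 4 was hybridised on the same slide and scanned together with the other 3 wt arrays, and was above each of them that was measured in 33 of 33 genes, with 2 others measured for Ifit2 (19.2% of all genes). It was also the brightest array before scaling. Its 75th percentile signal was 893, against 352, 482 and 380 on wt replicates 1 to 3 and 195 to 531 on the Card9-/- arrays. The part of this brightness in the module's level was not tested.

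The signalling factors that carry interferon responses were expressed on every array. Irf7, the transcription factor that amplifies interferon production (probe at mm9 chr7:148449104-148449163, minus strand), had levels of 6.33, 5.32, 5.28 and 6.17 in Card9-/- replicates 1 to 4, against 4.30, 4.51, 5.77 and 7.46 in wt replicates 1 to 4. Wt replicates 1 and 2 lay below all Card9-/- arrays and wt replicate 4 above them, so the groups overlapped, with a difference of 0.26 ± 0.69 (limma SE, adjusted p = 0.965). Irf9, the DNA-binding subunit of ISGF3 (chr14:56228806-56228865, plus strand), had levels of 4.12, 4.07, 4.03 and 3.57 in Card9-/-, against 3.56, 3.64, 3.87 and 5.10 in wt. Card9-/- replicate 4 lay apart from the other 3, level with the lowest wt array, and of the 33 genes Irf9 had the smallest excess of wt replicate 4 over the median of the other arrays, 2.35-fold. Stat2, its signalling partner (chr10:127729834-127729893, plus strand), had levels of 4.11, 4.44, 5.31 and 3.84 in Card9-/-, against 3.67, 4.11, 3.48 and 5.66 in wt. Here Card9-/- replicate 3 nearly reached wt replicate 4, and the 2 Stat2 probes differed in the sign of the genotype difference.

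Of the 6 sensors of viral nucleic acid, 5 varied little among Card9-/- arrays (SD 0.17 to 0.41 log2 units), and Ifi205 varied more (SD 1.11). Ddx58, which encodes RIG-I, averaged 3.67 ± 0.17 in Card9-/- and 3.67 ± 1.44 in wt (SD, n = 4 each). Ifih1, which encodes the long double-stranded RNA sensor MDA5, averaged 2.16 ± 0.41 in Card9-/- and 2.13 ± 1.62 in wt, and its 3 lower wt arrays lay between 1.30 and 1.35. The means of both genes thus coincided although wt replicate 4 stood 3.93-fold (Ddx58) and 3.45-fold (Ifih1) above every other array. Dhx58, the third RIG-I-like helicase, averaged 1.24 ± 0.25 in Card9-/- and 1.58 ± 1.46 in wt. Zbp1, a sensor of Z-form nucleic acid that can trigger necroptosis, averaged 3.59 ± 0.26 in Card9-/- and 3.54 ± 1.18 in wt. The AIM2-like receptor genes Ifi204 and Ifi205 differed from each other in spread on their brightest probes. Ifi204 ranged from 4.54 to 4.96 in Card9-/- and from 4.70 to 7.23 in wt, whereas Ifi205 ranged from 2.10 to 4.73 in Card9-/- and from 0.38 to 6.10 in wt. The second Ifi204 probe, however, ranged from 0.92 to 1.87 in Card9-/- and from -0.83 to 5.45 in wt. It thus spread as widely in wt as Ifi205 did, with the wt arrays in the same order.

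The IFIT genes, whose proteins bind viral RNA ends and block translation, were each highest on wt replicate 4. Ifit1 (chr19:34723827-34723886, plus strand) had levels of 2.46, 2.63, 3.21 and 2.08 in Card9-/-, against 2.05, 2.12, 1.01 and 5.53 in wt. Wt replicate 4 was 5.00-fold above the next array, Card9-/- replicate 3, and wt replicate 3 was the lowest of all. Ifit3 ranged from 2.28 to 2.96 in Card9-/- and from 1.66 to 6.36 in wt, with wt replicate 4 10.6-fold above every other array. Ifit2 had 3 usable wt arrays, since the spot on wt replicate 1 was an outlier, and it ranged from 0.76 to 2.02 in Card9-/- and from -1.45 to 3.75 in wt, with wt replicate 4 higher than the next array by 1.73 log2 units. Ifit3 has a near-identical paralog, Ifit3b, whose probe was 14.97-fold higher in wt replicate 4 than on any other array, and whether the probes separate the copies was not tested.

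The oligoadenylate synthetases make the messenger that activates RNase L. Of the 6 OAS family genes, 5 had a lower mean in Card9-/- (median difference -0.74), without any p under 0.05. Without wt replicate 4, 3 of the 6 were higher in Card9-/- and the median difference was 0.05. Oas1a (chr5:121346735-121346794, minus strand), an enzymatically active synthetase, had levels of 4.07, 2.94, 2.52 and 3.12 in Card9-/-, against 2.26, 2.75, 5.43 and 6.75 in wt. Both wt replicates 3 and 4 lay above every Card9-/- array and wt replicate 1 was the lowest, and the difference of -1.13 ± 0.94 (limma SE, adjusted p = 0.854) was the most negative of the module and was -0.32 without wt replicate 4. Oas1g (chr5:121332000-121332059, minus strand), which shares the promoter run printed above, had levels of -2.71, -3.88, -4.24 and -2.91 in Card9-/-, against -4.87, -4.33, -1.63 and 0.28 in wt. The order of the wt arrays was that of Oas1a, but Oas1g was dim, well above background on 3 arrays of each genotype. The 2 genes are close copies, and cross-hybridisation between them was not tested.

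Oas2 (chr5:121180343-121180402, minus strand) gave the smallest unadjusted p of the module. Its levels were 4.44, 4.21, 4.23 and 3.86 in Card9-/-, against 4.67, 4.55, 4.37 and 6.28 in wt. The genotypes overlapped by 1 array pair, Card9-/- replicate 1 and wt replicate 3, and the difference was -0.78 ± 0.47 (limma SE, adjusted p = 0.786). Oas3, the largest synthetase, averaged 0.12 ± 0.36 in Card9-/- and 0.04 ± 1.65 in wt. Oasl1, which restrains translation of Irf7, averaged 4.86 ± 0.16 in Card9-/- and 5.56 ± 1.26 in wt, and Oasl2 averaged 2.35 ± 0.31 in Card9-/- and 2.60 ± 2.01 in wt.

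Among the other antiviral effectors the arrays fell into several patterns. Mx1 (chr16:97668644-97668703, minus strand), a dynamin-like GTPase that acts against influenza virus, had levels of 1.75, 2.77, 3.69 and 2.21 in Card9-/-, against 2.99, 3.38, 0.74 and 4.62 in wt. Wt replicate 3 was the lowest array for Mx1 and also for its paralog Mx2, which ranged from 1.01 to 3.86 in Card9-/- and from 0.76 to 3.89 in wt. Mx2 was the gene in which wt replicate 4 exceeded the next array least among those it led, 1.02-fold over Card9-/- replicate 3. Rsad2 (chr12:27127859-27127918, minus strand), which encodes viperin, had levels of 5.24, 3.52, 3.77 and 6.58 in Card9-/-, against 2.82, 2.66, 2.91 and 7.26 in wt. On this probe every Card9-/- array stood above wt replicates 1 to 3, and Card9-/- replicates 4 and 1 approached wt replicate 4. On the second Rsad2 probe Card9-/- replicate 2 (0.60) lay below wt replicates 1 (0.65) and 3 (1.13). Cmpk2, which lies beside Rsad2 on chromosome 12 and encodes a mitochondrial nucleotide kinase, averaged 1.82 ± 0.63 in Card9-/- and 1.72 ± 2.55 in wt, with wt replicates 1 to 3 between 0.41 and 0.49 and wt replicate 4 at 5.54.

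Isg20 (chr7:86065136-86065195, plus strand), an exonuclease that degrades single-stranded RNA, had levels of 7.03, 4.82, 5.19 and 8.22 in Card9-/-, against 4.89, 3.93, 5.62 and 7.01 in wt. It was the most positive difference of the module, 0.95 ± 0.87 (limma SE, adjusted p = 0.866), and its second probe had a difference of 1.05. Without Card9-/- replicate 4 the difference was 0.32. Card9-/- replicates 1 and 4 were also the arrays highest in red cell markers, whose list deviation over 7 measured genes was 2.33, -0.35, -0.28 and 3.81 in Card9-/- replicates 1 to 4, against 0.49, -1.30, 0.64 and -3.97 in wt, and its part in the Isg20 level was not tested. Bst2, which encodes tetherin and holds virions at the cell surface, averaged 2.54 ± 0.57 in Card9-/- and 3.21 ± 0.91 in wt. Rtp4 averaged 3.71 ± 0.47 in Card9-/- and 4.43 ± 1.71 in wt. Ifi44 was too dim to be tested, with its brighter probe clear of background on 1 Card9-/- and 2 wt arrays. Its level ranged from -5.87 to -2.88 in Card9-/- and from -5.45 to -1.50 in wt, again with wt replicate 4 highest.

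Isg15 and its pathway included the gene with the largest gap between wt replicate 4 and the next array. Isg15 (chr4:155573649-155573708, minus strand), the ubiquitin-like modifier, had levels of 6.55, 5.93, 6.02 and 6.91 in Card9-/-, against 6.97, 7.20, 5.95 and 7.94 in wt. Wt replicates 1, 2 and 4 exceeded every Card9-/- array while wt replicate 3 did not, and the difference was -0.66 ± 0.48 (limma SE, adjusted p = 0.827). Usp18, the Isg15 protease (chr6:121220874-121220933, plus strand), had levels of 0.78, 1.28, 0.74 and 1.01 in Card9-/-, against 0.08, 1.21, 0.74 and 5.01 in wt. Apart from wt replicate 4, which was 13.3-fold above the next array, the Usp18 levels of the genotypes overlapped. Herc6, the ligase that attaches Isg15 in mice, averaged 0.57 ± 0.39 in Card9-/- and 1.07 ± 1.59 in wt.

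**Figure D2:**
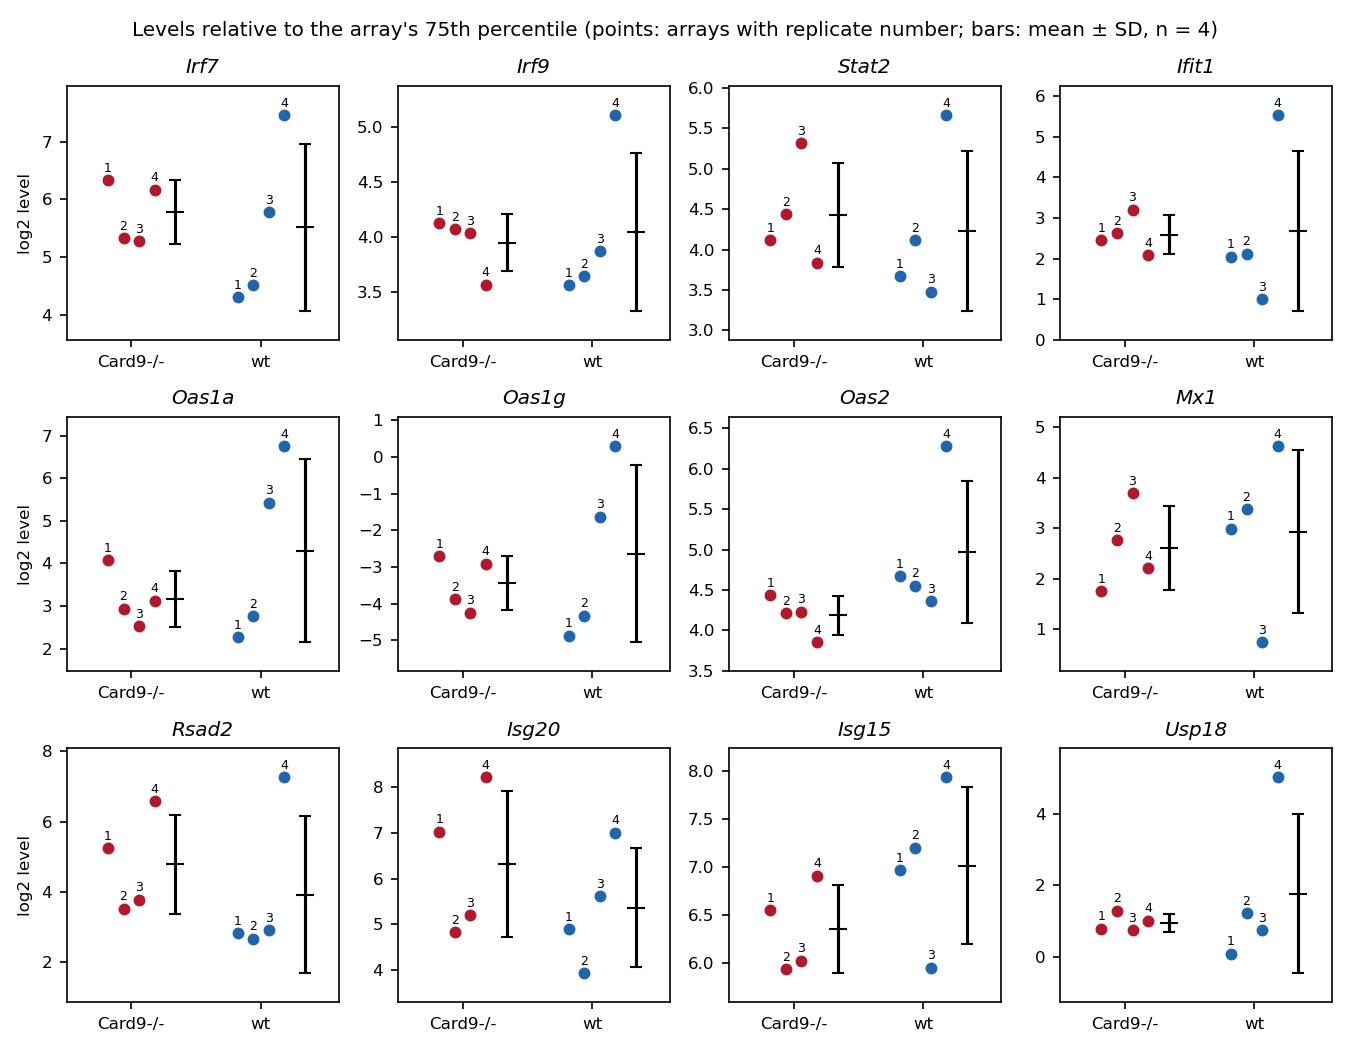
Log2 levels relative to the array's 75th percentile (vertical axes, 1 panel a gene) of 12 genes on the 4 Card9-/- arrays (red, left) and the 4 wt arrays (blue, right), numbered by replicate, with mean ± SD bars. Wt 4 is the highest point in every panel except Isg20, where Card9-/- 4 reached 8.22 against 7.01 on wt 4.

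The Schlafen genes, a family known for regulators of T cell quiescence, spread widely. Slfn4, a myeloid member, ranged from -3.39 to 1.26 in Card9-/- and from -2.81 to 4.54 in wt. Its level in wt replicate 4 was 56.0-fold above the median of the other arrays, the largest such excess of the module. Slfn1 ranged from -1.37 to 0.63 in Card9-/- and from -2.65 to 2.00 in wt. Slfn5 ranged from 1.89 to 3.40 in Card9-/- and from 2.03 to 5.34 in wt, but 1 of its 5 probes did not follow wt replicate 4, with 0.89 there and 2.73 on wt replicate 3. Of the last 2 genes, Xaf1, a pro-apoptotic antagonist of XIAP, averaged 2.47 ± 0.24 in Card9-/- and 2.59 ± 1.37 in wt. Phf11d averaged 3.65 ± 0.36 in Card9-/- and 4.15 ± 1.28 in wt.

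The lead of wt replicate 4 was seen with most probes. It had the highest level of the 8 arrays in 50 of the 55 probes kept. Of 16 genes with several kept probes, 4 (Ddx58, Stat2, Xaf1 and Zbp1) had probes that differed in the sign of the genotype difference. It was also seen with and without an ISRE match. The median gap of wt replicate 4 to the next array was 1.79 log2 units for the 13 tested genes with a matched core and 1.88 for the 12 tested genes whose promoter held none.

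Because wt replicate 4 stood apart, each comparison was repeated without it. This array was singled out for its high levels in these same genes, so leaving it out raised the difference of every gene by construction. It was above the other wt arrays in 19.2% of all genes, so the all-gene shares in this paragraph are not a like background. Without it the module's median difference was 0.59 log2 units (all genes -0.10), and 27 of the 33 genes were higher in Card9-/-, where 43.5% of all genes were. In 14 genes the sign of the difference turned. By role, the median difference ran from 0.05 for the OAS family to 1.12 for the Schlafen family. None passed an adjusted p of 0.05 in limma (adjusted p 0.754 to 0.988), where 0.0269% of all genes did. Of the module, 3 genes had an unadjusted p under 0.05, all higher in Card9-/-, where 2.56% of all genes had one in that direction. They were Slfn1 (1.80 ± 0.52, limma SE, adjusted p = 0.754), Cmpk2 (1.38 ± 0.44, adjusted p = 0.754) and Rsad2 (1.98 ± 0.73, adjusted p = 0.758), named after their values were seen. In 8 genes (Ddx58, Ifih1, Ifit3, Oas3, Rsad2, Cmpk2, Slfn1 and Xaf1) every Card9-/- array lay above wt replicates 1 to 3, against 2.79% of all genes. This was read from each gene's brightest probe. On another kept probe, Card9-/- replicate 2 lay below wt replicate 2 for Ddx58 (1.73 against 1.82) and below wt replicate 1 for Rsad2 (0.60 against 0.65). On another Xaf1 probe, Card9-/- replicate 1 (-2.14) lay below wt replicate 1 (-1.57). A further Ddx58 probe also overlapped, with Card9-/- replicate 1 (-1.54) below wt replicate 2 (-1.32). So did a further Xaf1 probe, with Card9-/- replicate 2 (-4.19) below wt replicate 1 (-3.61). The second Ifih1 probe and the remaining Ddx58 probe did not overlap.

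**Figure D3:**
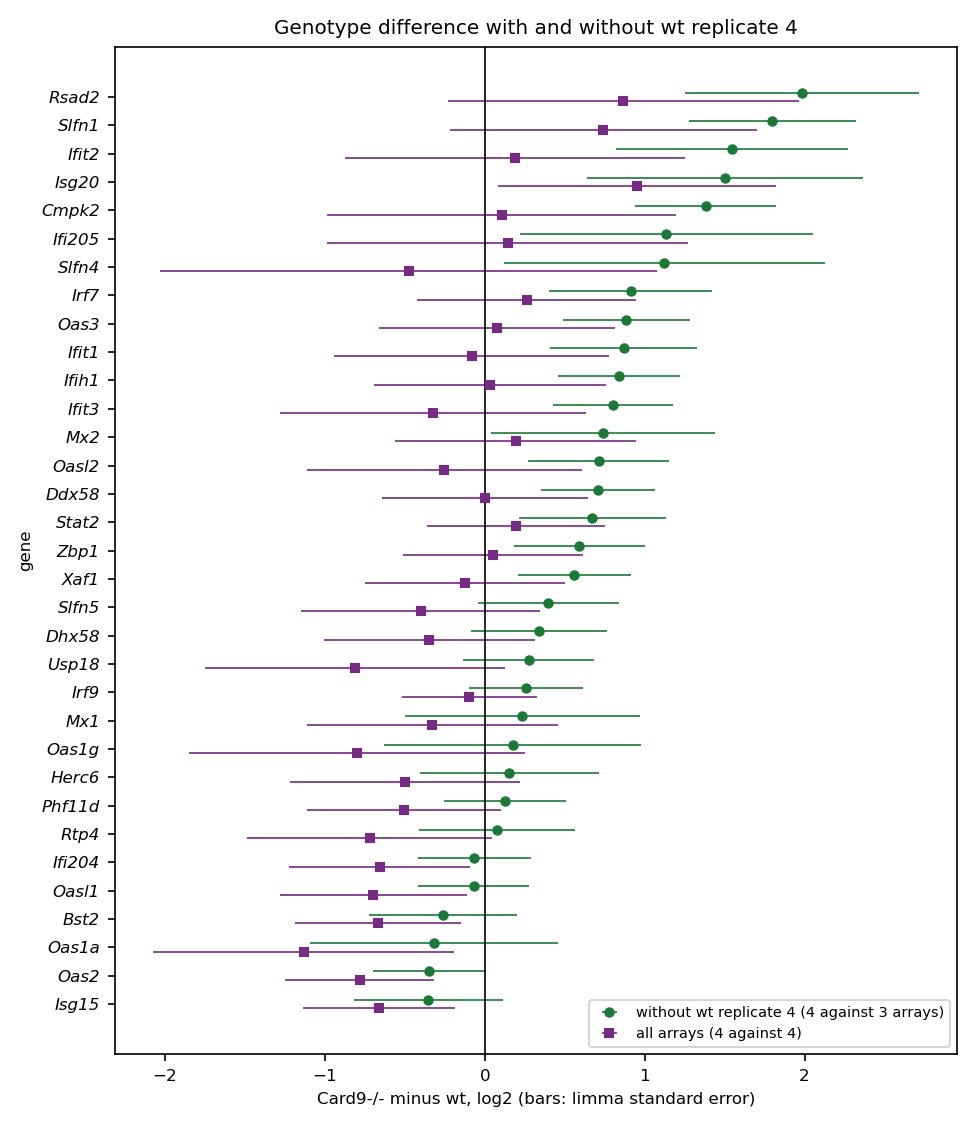
Genotype difference in log2 units (Card9-/- minus wt, horizontal axis, bars limma SE) of 33 genes without wt replicate 4 (green circles) and with all arrays (purple squares). The circles lie right of the squares for every gene, since wt 4 was the highest wt array in each. Above 0 are 27 circles and 13 squares.

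Slide and genotype could be separated only in part, since slide 1 held 1 Card9-/- array. Within slide 1, Card9-/- replicate 4 against all 4 wt arrays gave a median difference of -0.39 over the module (all genes -0.26), with 5 of 33 genes higher in Card9-/-. Against wt replicates 1 to 3 on that slide, Card9-/- replicate 4 was higher in 23 of 33 genes, by a median of 0.36 (all genes -0.22, 41.8% higher). The direction on slide 1 was thus negative with wt replicate 4 and positive without it, with 1 Card9-/- array and no test. These arrays are also part of the comparison without wt replicate 4 above, so they are no independent check of it.

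Once wt replicate 4 was set aside, the remaining 7 arrays did not rank the genes alike. The highest of them was Card9-/- replicate 3 for 12 genes, Card9-/- replicate 1 for 8 and wt replicate 3 for 7, and the lowest was wt replicate 1 for 12 and wt replicate 3 for 8. Wt replicate 3 led for Oas1a and Oas1g and was lowest for Ifit1, Ifit2, Mx1 and Mx2. Card9-/- replicate 3 led for Ifit1, Mx1, Mx2, Slfn1, Slfn4 and Stat2, and Card9-/- replicate 4 led for Isg20 and Rsad2. The spread of a gene over these 7 arrays had a median of 1.61 log2 units.

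Ifnb1 and Ifng did not peak on wt replicate 4, although among the wt arrays it was their highest. Ifnb1, which encodes interferon beta, had levels of 1.94, -0.78, -0.73 and -0.16 in Card9-/-, against -4.34, -3.09, -3.05 and -0.82 in wt. Each Card9-/- array lay above each wt array, as in 1.53% of all genes, and the difference was 2.89 ± 0.83 (limma SE), which missed the threshold (adjusted p = 0.532). Ifng, the type II interferon of T and natural killer cells, had levels of 1.16, 0.58, 0.20 and 0.03 in Card9-/-, against -2.58, -1.05, -2.70 and -0.30 in wt. It too did not overlap between genotypes, with a difference of 2.15 ± 0.59 (limma SE, adjusted p = 0.532), and T cell and natural killer cell markers were higher on the same arrays, whose part in it was not tested. The interferon alpha genes Ifna1 and Ifna5 were dim, well above background on 3 wt arrays each and on 2 and 1 Card9-/- arrays. Ifna1 had levels of -3.16, -4.86, -5.87 and -1.92 in Card9-/-, against -3.73, -3.87, -3.28 and -4.49 in wt. Ifna5 had levels of -4.03, -4.74, -5.94 and -2.88 in Card9-/-, against -3.87, -4.52, -3.40 and -4.35 in wt. Both were highest on Card9-/- replicate 4 and lowest on Card9-/- replicate 3, and among the wt arrays wt replicate 3 was the highest. Interferon alpha genes are close copies, and whether their probes separate them was not tested. Of 8 measured interferon and receptor genes, 0 had their highest level on wt replicate 4, as did 11.1% of all genes.

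The receptor chains differed in opposite ways among the wt arrays. Ifnar1 had levels of 3.50, 3.43, 3.53 and 3.99 in Card9-/-, against 4.26, 3.50, 1.82 and 2.41 in wt. Ifnar2 had levels of 2.92, 2.08, 2.14 and 1.81 in Card9-/-, against 1.65, 1.59, 5.14 and 4.24 in wt. Wt replicates 3 and 4, the arrays high in macrophage markers, were low in Ifnar1 and high in Ifnar2, and neither gene had a p under 0.05.

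**Figure D4:**
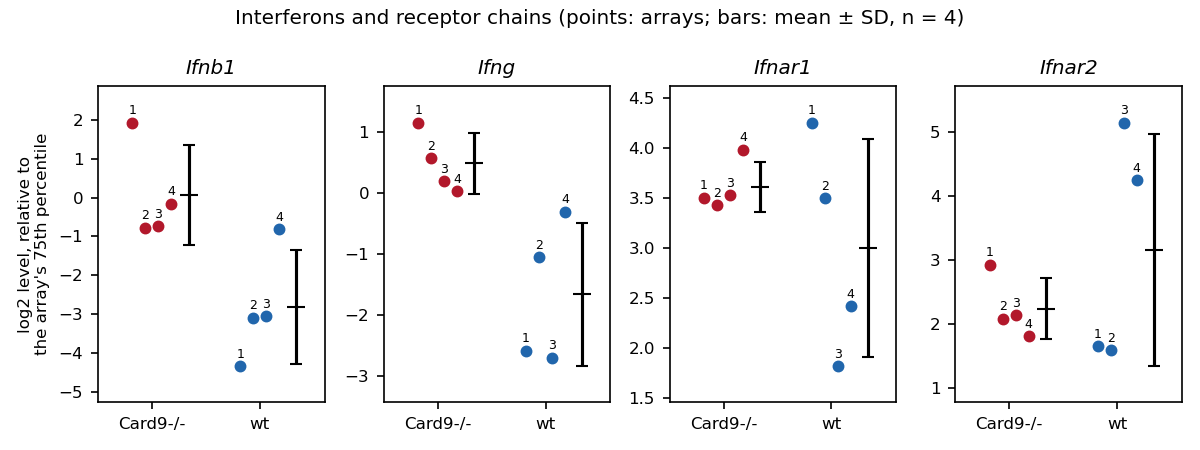
Log2 levels relative to the array's 75th percentile (vertical axes) of Ifnb1, Ifng, Ifnar1 and Ifnar2 on the Card9-/- arrays (red, left) and wt arrays (blue, right), numbered by replicate, with mean ± SD bars. The Card9-/- and wt points do not overlap for Ifnb1 and Ifng, and wt 3 and 4 lie apart from wt 1 and 2 for both receptor chains.

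Other genes of the pathway were read from lists. Of 43 further interferon-stimulated genes measured, 32 had their highest level on wt replicate 4 (74.4%, against 11.1% of all genes), and the list deviation there was 1.66 log2 units. With all arrays 18 were higher and 25 lower in Card9-/- (median difference -0.17), and 0 had a p under 0.05 in either direction. Without wt replicate 4, 31 of the 43 were higher (median difference 0.35), where 43.5% of all genes were. Of the 43, 2 (Ifit3b and Ddx60, named after their values were seen) had a limma p under 0.05, both higher in Card9-/-. Of all genes, 2.56% had one in that direction. Since 32 of the 43 were highest on the array left out, leaving it out raised most differences by construction. The all-gene shares of 43.5% and 2.56% are thus not a like background. With all arrays the smallest p belonged to Mov10, an RNA helicase, and to Ube2l6, the Isg15-conjugating enzyme. Mov10 had levels of 2.27, 2.11, 1.80 and 2.22 in Card9-/-, against 2.89, 2.79, 2.36 and 3.67 in wt. Every Card9-/- array lay below every wt array, as in 3.69% of all genes, with a difference of -0.83 ± 0.37 (limma SE, adjusted p = 0.694). Ube2l6 had levels of 6.93, 3.15, 3.75 and 8.36 in Card9-/-, against 4.25, 2.09, 4.20 and 2.67 in wt. It was thus high on Card9-/- replicates 4 and 1, as Isg20 was, and low on wt replicate 4.

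Among 22 measured genes that lean to interferon gamma, 16 were highest on wt replicate 4 (11.1% of all genes were), with a list deviation of 1.50 there. None had a limma p under 0.05. Their median difference was -0.26, and 0.16 without wt replicate 4. In that setting 3 (Cxcl9, Irgm2 and Socs1, named after their values were seen) had a limma p under 0.05, higher in Card9-/-, against 2.56% of all genes. Leaving out wt replicate 4 raised the differences of the 16 genes highest there by construction, so this share is not a like background. Cxcl9, a T cell chemoattractant with the smallest p, had levels of 1.59, -1.07, -2.40 and -1.26 in Card9-/-, against -4.80, -2.60, -2.73 and 0.47 in wt, a difference of 1.63 ± 1.14 (limma SE, adjusted p = 0.827). Tap1, a peptide transporter, had levels of 2.51, 3.95, 2.42 and 3.50 in Card9-/-, against 3.41, 3.29, 3.61 and 5.01 in wt, a difference of -0.74 ± 0.53 (limma SE, adjusted p = 0.827). Both overlapped between genotypes. Of 15 genes of the signalling chain to ISGF3, 6 were highest on wt replicate 4, with a list deviation of 1.17 there, and 0 had a p under 0.05. The lowest p was that of Irf8, an interferon regulatory factor of myeloid cells, with levels of 5.66, 4.27, 4.62 and 4.31 in Card9-/-, against 4.07, 3.70, 3.71 and 4.32 in wt (difference 0.76 ± 0.41, limma SE, adjusted p = 0.753). Irf2, a regulatory factor known as a repressor of these targets, had levels of 2.04, 1.17, 1.07 and 0.68 in Card9-/-, against 1.12, 1.39, 2.68 and 3.19 in wt (difference -0.85 ± 0.55, limma SE, adjusted p = 0.804). Irf2 was highest on wt replicates 4 and 3, and Irf8 on Card9-/- replicate 1. Of 13 measured genes for sensing upstream of interferon beta, 6 were highest on wt replicate 4 with a list deviation of 0.44. Aim2, a sensor of cytosolic DNA, had levels of 1.88, 1.04, 2.00 and 1.71 in Card9-/-, against 2.33, 2.13, 2.14 and 2.40 in wt (difference -0.59 ± 0.34, limma SE, adjusted p = 0.775). Traf3, an adaptor in signalling to interferon beta, had levels of 3.74, 3.95, 3.69 and 2.67 in Card9-/-, against 4.04, 4.10, 4.07 and 4.26 in wt (difference -0.60 ± 0.37, limma SE, adjusted p = 0.792). In both, each Card9-/- array lay below each wt array, as in 3.69% of all genes. The list deviation of wt replicate 4 was thus 2.53 for the module, 1.66 and 1.50 for the other target lists, 1.17 for the signalling chain, 0.44 for sensing and -0.16 for ligands and receptors, a description without a test.

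**Figure D5:**
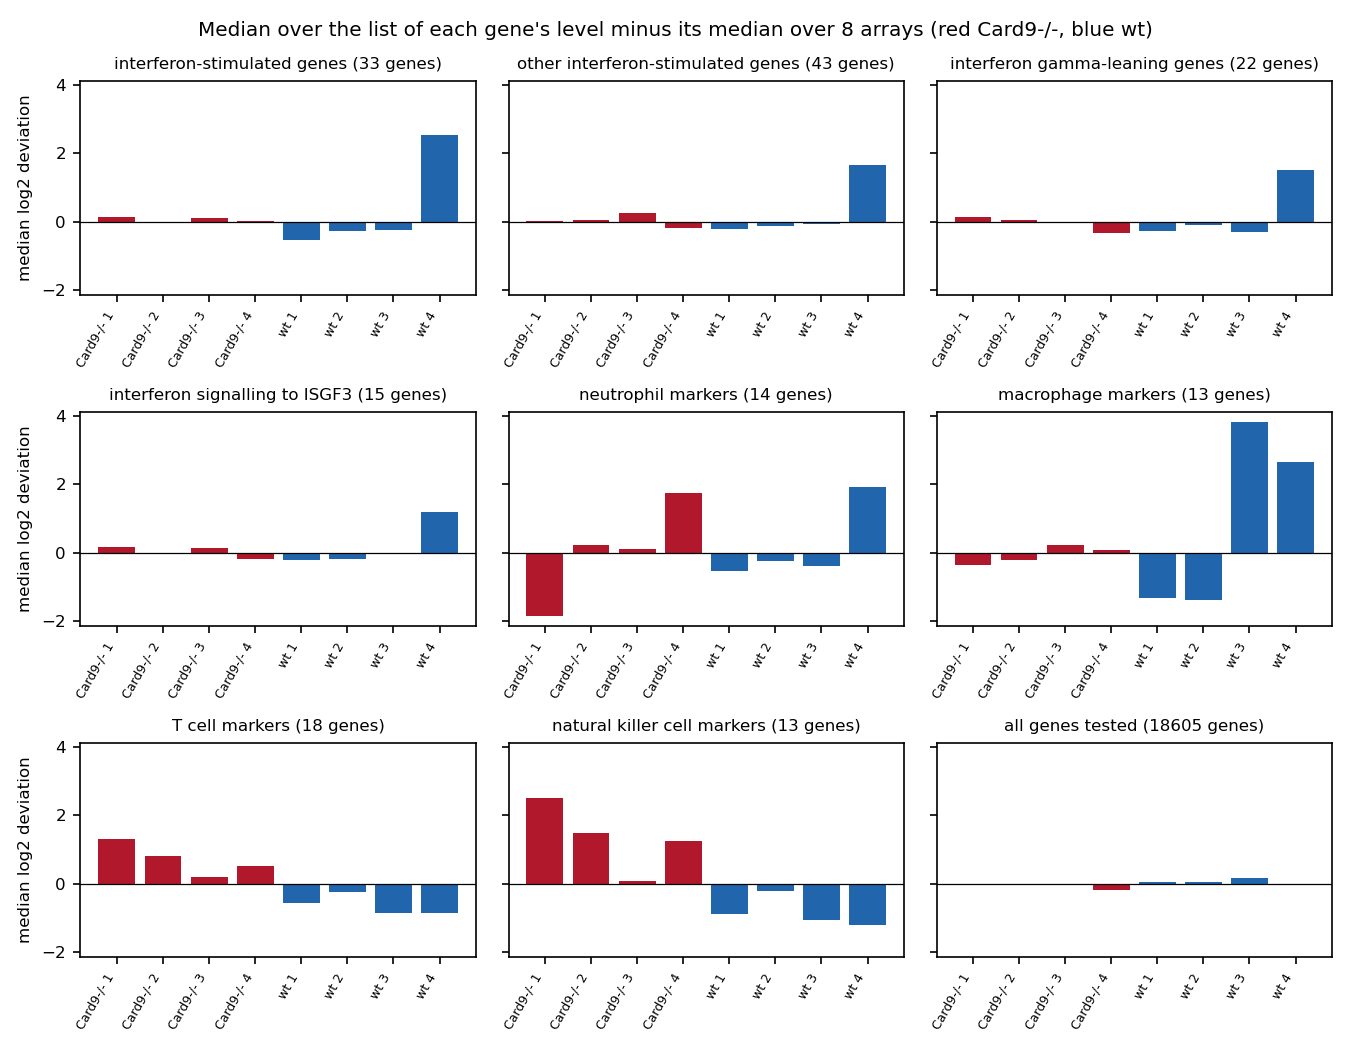
Bars give, for 8 gene lists and all 18605 genes tested (panels), the median over the list of each gene's log2 level minus its median over 8 arrays (vertical axis), on the Card9-/- arrays (red, left) and wt arrays (blue, right). The interferon-stimulated genes reach 2.53 on wt 4 alone, macrophage markers are high on wt 3 and 4, and neutrophil markers on Card9-/- 4 and wt 4.

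Neutrophil markers were also high on wt replicate 4, though not there alone. Of 14 neutrophil markers, 8 were highest on wt replicate 4, where 11.1% of all genes were. The list deviation was -1.85, 0.22, 0.11 and 1.73 in Card9-/- replicates 1 to 4, against -0.53, -0.24, -0.38 and 1.91 in wt. Of 13 macrophage markers, 2 were highest on wt replicate 4. Plasmacytoid dendritic cell markers, from the cells known as strong producers of interferon alpha, had a list deviation of 0.64, -0.48, -0.27 and 0.69 in Card9-/-, against -0.25, -0.39, 0.23 and 0.09 in wt, with 1 of 11 highest on wt replicate 4. The part of cell makeup in the module's level on wt replicate 4 was not tested. Among all genes, those furthest above the other arrays on wt replicate 4 were Upp1 (45.0-fold) and Mmp13 (27.1-fold), and the 100 with the largest gap included 11 genes of the module and 8 of the further interferon-stimulated genes.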

How the data were processed

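Peritoneal macrophage RNA of 4 Card9-/- and 4 wt samples was measured on 1-colour (Cy3) Agilent arrays, from 0.2 µg RNA per the labels' protocols. The authors deposited scanner files of intensity values, already background-subtracted by Agilent Feature Extraction 10.7.1.1 per the file headers. The authors' series matrix holds log2 values. Its columns matched the scanner files by genotype in 8 of 8 and by replicate in 2 of 8, and 7075 of its 56745 probe identifiers carried shifted values, so its 49670 aligned probes served only as an alternative. Its normalization method is not given in these sources.

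Processed signals of 59305 non-control spots were taken to log2, and each array's 75th percentile (signal 195 to 893) was subtracted. Outlier spots (63 to 213 an array) were left out and repeated spots averaged. Between 47.8% and 56.5% of spots were well above background and 0 were saturated, and the number of arrays limits precision. A probe was kept if 3 or more of the 4 arrays of a genotype had it well above background (28169 probes), and the brightest stood for each of 18605 genes. Names came from accessions (32947 probes), symbols (10212) or synonyms (520) in the GRCm38.p6 table, otherwise from the files (12867). Probe coordinates are those of the files, on mm9. No mm9 annotation was used, so exons and UTRs are not named.

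The genotype test was that of limma 3.58.1 (R 4.3.3, package data.table at 1.17.8), two-sided, with Benjamini-Hochberg adjustment over all genes tested. Tables were made in Python 3.11.15 (pandas 2.3.3, numpy 2.4.6). Tested on simulated data of 18605 genes with 200 changed, the fit called 0% of changes of 2 log2 units and 80.5% of changes of 4. Members, roles and gene lists were chosen with earlier results of these data known. Values on every array are given for genes with an unadjusted p under 0.05, the 6 largest differences, the 3 signalling factors and 5 representatives of roles, and from each interferon pathway list for the 2 smallest p, with Ifnb1, Ifnar1 and Ifnar2. Another gene that this rule names is not reported here. Alternatives were scaling, background correction, dim-probe filter, probe choice, slide and replicate blocks, array weights, averaging of wt replicates 1 and 2 (which correlated at 0.985), the matrix and leaving out each array. Another 4 settings without wt replicate 4 were added after seeing the data.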

Additional observations from a re-analysis of the deposited data

Results flagged for a closer look

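The distance of 1 array from the other 3 of its genotype was measured as its gap to the nearest of them, divided by the range of the 4 (Dixon's ratio). On the high side of wt, where wt replicate 4 was the array concerned, 12 genes exceeded the 95% critical value, against 0.709% of all genes. The ratios were 0.985 for Cmpk2, 0.984 for Ifih1, 0.947 for Rsad2, 0.925 for Xaf1, 0.924 for Ifit3 and 0.919 for Slfn5. They were 0.867 for Oasl1, 0.861 for Slfn1, 0.844 for Ifi204, 0.844 for Phf11d, 0.839 for Oas2 and 0.830 for Ddx58. The median deviation of the 33 genes on the wt arrays had a ratio of 0.908 on the same side. In Card9-/-, Irf9 had a ratio of 0.836, with replicate 4 on the low side. Chance alone exceeds the critical value in about 1 in 20 groups, and the genes share the same arrays and are not independent.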

How the results depend on the processing

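Of the module's 33 tested genes, 0 passed the adjusted threshold under any of the 24 alternatives run in limma. The count of all genes past it, 5, was 587 with array weights and 0 with the slide as a block, within slide 1 and with probes well above background on all 8 arrays (unadjusted p under 0.05 in 1660, 1637 and 1063 genes), and 5 to 6 when 1 array was left out. With a replicate block it was 3 (999 genes unadjusted), with 0 of the module and a median difference of -0.25 as before. The 5 genes of the main fit included the Y-linked Ddx3y, Eif2s3y and Uty (limma adjusted p 0.00038, 0.00038 and 0.0013). Their probes were well above background on no wt array, so the filter on all 8 arrays left them out by construction. Same-numbered arrays deviated from their group means with correlations of -0.13, 0.25, -0.12 and -0.28, and 1 of 4 correlated best with its own number, so the numbers do not pair the samples.

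The module's median difference of -0.25 turned positive with array weights (0.53), in the authors' matrix (0.013), and without wt replicate 4 combined with averaged wt replicates 1 and 2 (0.57), median scaling (0.46), normexp background (0.50) or quantile normalization (0.82). It was -0.43 with median scaling (all genes -0.26), -0.34 with normexp background, -0.040 with quantile normalization, -0.39 with the slide as a block or within slide 1, and -0.50 with wt replicates 1 and 2 averaged. Leaving out 1 array gave -0.50 to 0.59, the upper end without wt replicate 4. Signs also turned with array weights for Irf9 (0.36), Ifit1 (0.54), Oas1a (0.20), Oas1g (0.53) and Usp18 (0.021), in the matrix for Irf9 (0.21) and Ifit1 (0.087), with quantile normalization for Irf9 (0.22) and Ifit1 (0.087), for Stat2 with the mean of its probes (-0.23) and with the slide as a block or within slide 1 (-0.39), and for Irf7 with wt replicates 1 and 2 averaged (-0.10). With 1 array left out the range was -0.64 to 0.87 for Ifit1, -0.14 to 0.91 for Irf7, -0.26 to 0.26 for Irf9, -1.06 to 0.24 for Mx1, -1.54 to 0.18 for Oas1g, -0.10 to 0.67 for Stat2 and -1.37 to 0.28 for Usp18, and without a turn of sign -1.02 to -0.35 for Isg15, 0.32 to 1.50 for Isg20, -1.81 to -0.32 for Oas1a, -0.98 to -0.35 for Oas2 and 0.26 to 1.98 for Rsad2. Isg15, Isg20, Oas2 and Rsad2 kept their signs in all 20 alternatives that cover single genes. The causes were not tested.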
